A study of Mus musculus with 22 samples.

Results

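The 10 genes described here are Ms4a1, Ms4a2, Ms4a3, Ms4a4a, Ms4a4b, Ms4a4c, Ms4a6b, Ms4a6c, Ms4a6d and Ms4a7, members of the membrane-spanning 4-domains family A (MS4A), taken by name from the 31053 genes of the count matrices. Their expression was measured in 48233 cells with at least 1 UMI of Ptprc, which encodes the pan-leukocyte protein CD45, out of 179929 cells in 22 single-cell libraries. A UMI is the molecular tag that marks 1 captured RNA molecule. Levels are given as CPM, the UMIs of a gene as parts per 1000000 of all UMIs summed over the cells of a class in a library. A difference was called where its adjusted p was under 0.05.

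The libraries were of 3 kinds. ntCZC libraries held ZsGreen-positive cells sorted from the peripheral blood of tumour-free mice, tissue libraries held hashtagged and pooled cells of kidney, liver, lung and stomach with epididymis or uterus, and the PBMC library held unsorted nucleated blood cells. All mice carried Prom1-CreERT2, a tamoxifen-activated Cre recombinase driven by the Prom1 promoter, and the Rosa26ZSG reporter that turns on ZsGreen after recombination. Nalcn-wt mice had no conditional Nalcn allele, Nalcn-het mice had 1 and Nalcn-null mice had 2. Recombination was limited to cells that had used the Prom1 promoter and to their progeny. There were 2 wt (571 to 608 days of age), 4 het (551 to 649 days) and 4 null (551 to 613 days) ntCZC libraries, 5 wt (571 to 654 days), 2 het (551 days) and 2 null (552 and 611 days) tissue libraries and 1 wt PBMC library (120 days). For 2 further tissue libraries the labels name different genotypes, and these entered no comparison. The labels name no animals, and some libraries share age and sex, so p-values measure only the spread seen in these libraries. For library kinds and genotypes it is the spread between libraries. For classes compared within tissue it is the spread left after library differences are removed, estimated over 12 classes together.

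MS4A proteins cross the membrane with 4 helices and are found mostly on blood cells, where several associate with antigen and Fc receptors. The best known are CD20, the B-cell surface protein encoded by Ms4a1, and the beta chain of the high-affinity IgE receptor of mast cells and basophils, encoded by Ms4a2. Ms4a3 is used as a mark of granulocyte and monocyte progenitors, Ms4a4b is known from T cells, and Ms4a7 is a macrophage gene.

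All 10 genes lie in 391 kb of chromosome 19 (GRCm38, GENCODE vM21, 11249675 to 11640851), and each is annotated as protein coding. On the plus strand are Ms4a4a (11375523 to 11392790), Ms4a4c (11404770 to 11427246), Ms4a4b (11443553 to 11467055), Ms4a6c (11469366 to 11482192) and Ms4a6b (11516512 to 11531256). On the minus strand are Ms4a1 (11249675 to 11266241), Ms4a7 (11321039 to 11336146), Ms4a6d (11586604 to 11604849), Ms4a2 (11615523 to 11623719) and Ms4a3 (11629496 to 11640851). The coding sequences are 639 to 873 bases long. Over the 45 gene pairs, coding identity after global alignment ran from 48.3% to 91.7%, with Ms4a4b and Ms4a4c the most alike, followed by Ms4a6b and Ms4a6d at 80.8%, Ms4a6b and Ms4a6c at 75.9% and Ms4a6c and Ms4a6d at 69.7%. The first 90 coding bases of the 6 genes of the Ms4a4 and Ms4a6 groups are shown. Within each group the 3 genes did not all have the same leading cell class in tissue. Ms4a4a was under 20 CPM in every class. Capitals mark positions at which the 3 genes of a group hold the same base (27 in the Ms4a4 group and 71 in the Ms4a6 group), counted without gaps from the start codon.
Ms4a4a: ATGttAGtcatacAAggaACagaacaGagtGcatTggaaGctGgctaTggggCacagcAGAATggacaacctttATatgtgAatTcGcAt
Ms4a4b: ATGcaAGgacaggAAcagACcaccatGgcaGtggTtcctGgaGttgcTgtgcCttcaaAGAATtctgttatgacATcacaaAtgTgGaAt
Ms4a4c: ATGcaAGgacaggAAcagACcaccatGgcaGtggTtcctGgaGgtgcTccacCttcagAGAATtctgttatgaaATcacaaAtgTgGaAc
Ms4a6b: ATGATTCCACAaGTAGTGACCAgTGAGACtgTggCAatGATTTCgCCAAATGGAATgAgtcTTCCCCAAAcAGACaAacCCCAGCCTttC
Ms4a6c: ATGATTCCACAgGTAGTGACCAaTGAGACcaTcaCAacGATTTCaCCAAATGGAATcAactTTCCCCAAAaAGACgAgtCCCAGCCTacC
Ms4a6d: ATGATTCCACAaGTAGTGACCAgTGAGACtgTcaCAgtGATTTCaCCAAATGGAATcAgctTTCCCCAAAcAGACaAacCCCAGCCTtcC
The sequenced RNA read was 91 bases long. Transcripts of Ms4a4b and Ms4a4c had 38 identical windows of 91 bases in common, those of Ms4a2 and Ms4a4b 22 and those of Ms4a6b and Ms4a6c 6, and no other pair shared any. A read within such a window fits both genes. How such reads were counted was not examined, so values of these genes carry that uncertainty.

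RefSeq promoter windows of GRCm38.p6 were at hand for 8 of the 10 genes (9 windows, 2 of them for Ms4a7), and the 250 bases before the start were searched on both strands for GAGGAA (the core bound by PU.1 and other ETS factors), TGTGGT (core of the Runx factors) and AGATAA (core of the family of Gata1). These letters occurred in 23.3%, 14% and 9.99% of all 32851 promoter windows of that length. The windows of 3 genes held a match and are shown in the direction of transcription with matches in capitals, Ms4a4b (chr19:11443308-11443557, plus strand), Ms4a4c (chr19:11407411-11407660, plus strand) and Ms4a2 (chr19:11623720-11623969, minus strand).
Ms4a4b: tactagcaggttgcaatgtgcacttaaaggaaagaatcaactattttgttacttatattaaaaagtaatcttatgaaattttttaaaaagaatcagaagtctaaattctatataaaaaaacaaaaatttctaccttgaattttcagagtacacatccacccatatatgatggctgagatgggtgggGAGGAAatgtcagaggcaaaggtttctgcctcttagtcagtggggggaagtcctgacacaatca
Ms4a4c: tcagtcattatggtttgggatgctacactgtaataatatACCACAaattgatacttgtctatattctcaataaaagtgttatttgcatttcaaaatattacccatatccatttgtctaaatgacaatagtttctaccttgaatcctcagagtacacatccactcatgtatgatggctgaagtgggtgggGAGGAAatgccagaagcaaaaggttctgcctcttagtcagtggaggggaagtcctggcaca
Ms4a2: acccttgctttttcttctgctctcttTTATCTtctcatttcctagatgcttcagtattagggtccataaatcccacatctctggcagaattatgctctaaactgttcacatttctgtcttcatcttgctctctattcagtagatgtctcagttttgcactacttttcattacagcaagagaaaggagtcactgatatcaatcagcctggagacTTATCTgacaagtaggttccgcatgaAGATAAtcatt
GAGGAA stood in 2 windows, those of Ms4a4b and Ms4a4c, and TGTGGT, here as its reverse complement ACCACA, in that of Ms4a4c. AGATAA or its complement TTATCT occurred 3 times before Ms4a2. A match describes the letters of the window and says nothing of binding.

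Libraries were unequal in depth. ntCZC libraries held 50 to 621 cells and 161541 to 2600526 UMIs, tissue libraries 1856 to 27857 cells and 8571019 to 139793927 UMIs, and the PBMC library 752 cells and 1422144 UMIs. No 2 libraries of a group were alike within sampling noise (lowest chi-square per degree of freedom 4.75 over 25 pairs). Of 2501 ntCZC barcodes 122 (4.88%) also occurred in a tissue library, and none was shared by ntCZC libraries. Nalcn UMIs were too few to check the labels. ntCZC and PBMC libraries held none. The grouped tissue libraries held 39 in wt (0 to 0.204 CPM a library), 11 in het (0.104 to 0.158) and 24 in null (0.272 to 0.386). By CPM the null libraries were thus the highest. Where the counted tags lay relative to the deleted part of the gene was not examined. Tissue null replicate 3, labelled female, held 31.2 CPM of 4 Y-linked genes, against at most 0.117 CPM in the other tissue libraries labelled female.

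Ptprc-positive cells were assigned to 16 leukocyte classes by 8 markers a class, none of them an Ms4a gene. At least 3 had to be detected, with no other lineage (platelets not counted) at 2 or more. This placed 1577 of 1902 ntCZC cells (82.9%), 14072 of 37095 cells of the grouped tissue libraries (37.9%) and 466 of 587 PBMC cells (79.4%). The classes were checked with 3 further markers each. In the 14 classes with at least 10 tissue cells, 42 of 42 such markers were above the median of the other classes, and 29 were highest in their own. The gate leaves out much of the family's RNA. In tissue, gated classes held 43.8% of Ms4a1 UMIs of Ptprc-positive cells, and between 21.1% (Ms4a6d) and 34% (Ms4a4b) of those of Ms4a4b, Ms4a4c, Ms4a6b, Ms4a6c, Ms4a6d and Ms4a7. In ntCZC they held 37.6% of Ms4a1 UMIs (723 of 1921). Endothelial cells, gated the same way without Ptprc, were taken as a measure of background, such as free RNA, whose source was not tested. They held 0 to 8.27 CPM for the 10 genes when all tissue libraries were pooled. In single libraries they reached 28.2 CPM of Ms4a1, 26.6 of Ms4a4c, 26.3 of Ms4a6c, 22 of Ms4a4b and 22 of Ms4a6b. Ms4a6d and Ms4a7 reached 15 CPM each. Low values of these genes can therefore lie near background.

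**Figure D1:**
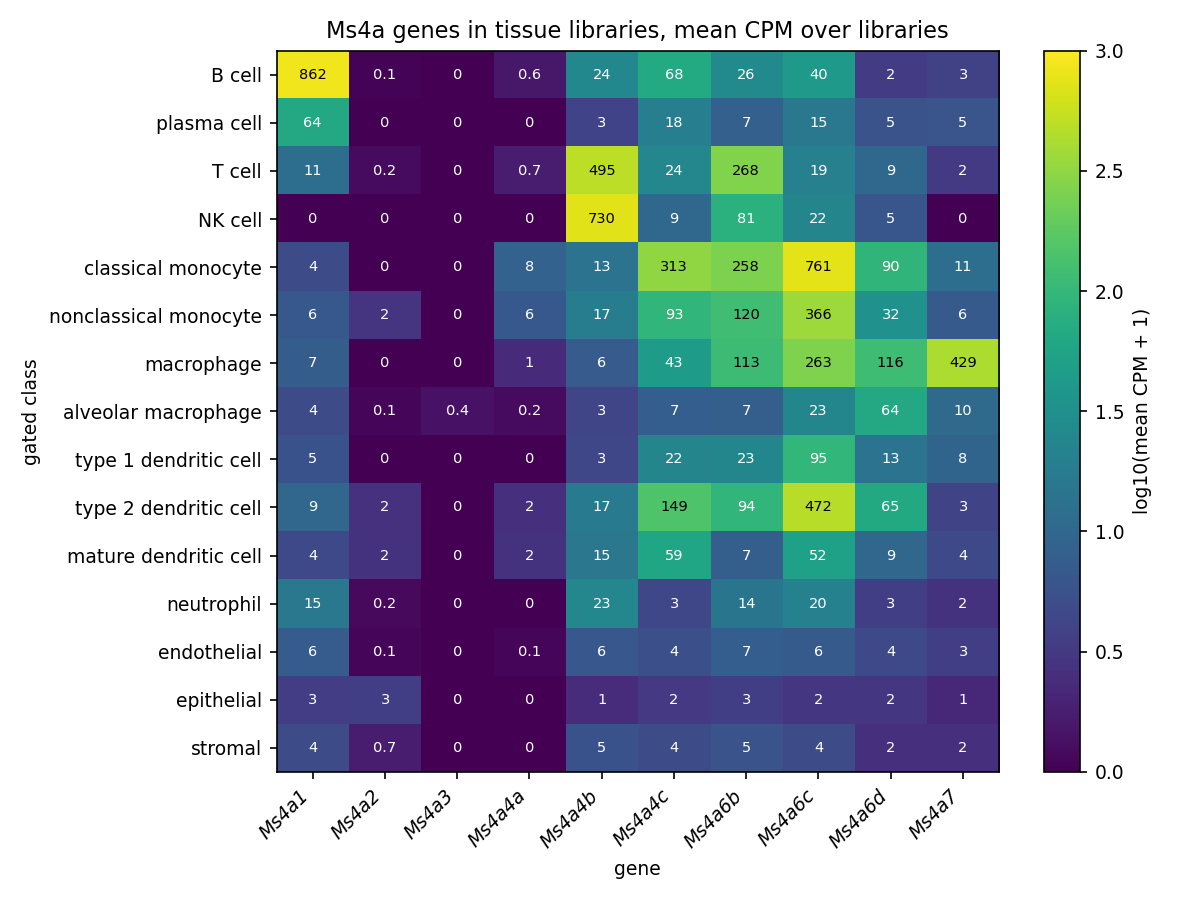
Mean CPM over tissue libraries (rows, gated classes with at least 10 cells in 3 or more libraries, with 3 non-leukocyte classes at the bottom; columns, genes), coloured by log10(mean CPM + 1) and printed in each cell. Ms4a1 was high in B cells (862), Ms4a4b in NK (730) and T cells (495), Ms4a6c in classical monocytes (761) and Ms4a7 in macrophages (429).

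Ms4a1, the CD20 gene, was led by B cells, at 13.4-fold the mean of plasma cells, the next class. In tissue B cells it ranged from 461 to 1280 CPM with a median of 896 over 8 libraries (mean 862 ± 258 SD). In plasma cells, the antibody-secreting descendants of B cells, the 4 libraries with at least 10 cells gave 129 CPM (wt replicate 4), 81.1 (wt replicate 2), 48 (null replicate 3) and 0 (het replicate 1). T cells were at 0 to 30 CPM and NK cells at 0 in all 7 libraries. A library held at most 51 NK cells, so a low level could be missed. The fitted log2 change of NK over T cells was -4.72 ± 2.97 (adjusted p = 0.368, edgeR) and was not called. Ms4a1 was higher in B than in T cells in 8 of the 8 tissue libraries with at least 10 cells of each, and the groups did not overlap. The fitted log2 change of B over T cells was 7.22 ± 0.38 (SE, adjusted p = 3.37e-29, edgeR quasi-likelihood test with library as a block). Plasma cells were below B cells by a log2 change of -3.50 ± 0.45 (adjusted p = 8.56e-10), lower in 4 of 4 libraries.

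Blood B cells also held Ms4a1. The 7 ntCZC libraries with at least 10 B cells ranged from 674 to 1737 CPM with a median of 911, and the PBMC library was at 1189 CPM (347 UMIs in 182 cells). ntCZC and tissue B cells overlapped, with a log2 difference of 0.15 (95% interval -0.27 to 0.57, adjusted p = 0.649). At least 1 Ms4a1 UMI was seen in 67.5% of tissue, 90% of ntCZC and 73.6% of PBMC B cells. With every cell thinned to 1000 UMIs these shares were 52.3%, 60.7% and 58.2%, leaving out 644, 1 and 35 shallower cells. Endothelial cells, which should lack the gene, showed 1.02% (0.691% thinned), with a median of 1547 UMIs a cell against 1533 in tissue B cells and 3049 in ntCZC B cells.

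Of the 10 genes 7 passed the filter on low counts in the fit over tissue classes, and 4 of these differed between B and T cells, where 27.3% of all 7471 tested genes did. Ms4a1 and Ms4a4c were higher in B cells, and Ms4a4b and Ms4a6b were higher in T cells. The median log2 change of the 7 genes was 0.31 against 0.02 for all tested genes. Ms4a4c in B cells ranged from 33.7 to 90.9 CPM, median 72.6, against 11.4 to 38 CPM, median 22.2, in T cells. B cells were higher in 8 of 8 libraries, although the ranges met (log2 change 1.76 ± 0.36, adjusted p = 2.98e-05). A stricter cell filter (500 genes, 10% mitochondrial UMIs) ended this call (1.32, adjusted p = 0.121). Ms4a6c (39.7 ± 25.9 CPM in B and 19.1 ± 7.6 in T cells, adjusted p = 0.105), Ms4a6d (2.45 ± 6.24 and 9.1 ± 5.54, log2 change -1.05, 0.0857) and Ms4a7 (2.8 ± 3.09 and 2.2 ± 3.01, 0.807) did not pass, and Ms4a2, Ms4a3 and Ms4a4a, at up to 3.52 CPM in either class, were not tested. Ms4a6d was called lower in B cells without wt replicate 2 (-2.76, adjusted p = 4.95e-04), with DESeq2 (-1.49, 0.0298), with no filter on low counts (-1.07, 0.0454) and with no Ptprc requirement (-1.19, 0.0343), and was at 0.03 under the stricter cell filter. Plasma cells held Ms4a4c at 60.1 (wt replicate 2), 12.7 (wt replicate 4), 0 and 0 CPM (log2 change to B cells -1.58 ± 0.54, adjusted p = 0.0234). This call was lost without het replicate 1 (-1.30, adjusted p = 0.0932), het replicate 2 (-1.47, 0.0519), null replicate 3 (-1.45, 0.0569) or wt replicate 4 (-1.27, 0.208), and the change itself was smaller with a gate of 2 markers (-0.36, 0.63) and under the stricter cell filter (-0.61, 0.696). Ms4a1 and Ms4a4c were the 2 of 7 tested members called between plasma and B cells, where 23.2% of all genes were. Ms4a4b (3.05 ± 4.25 CPM in plasma cells, adjusted p = 0.0893), Ms4a6b (7.29 ± 8.87, 0.382), Ms4a6c (15.1 ± 12.7, 0.457), Ms4a6d (4.9 ± 8.78, 0.467) and Ms4a7 (5.26 ± 10.5, 0.423) did not pass, and Ms4a2, Ms4a3 and Ms4a4a were at 0 in plasma cells. With a gate of 2 markers Ms4a6d (3.08, adjusted p = 3.86e-06) and Ms4a7 (2.35, 0.0041) were called higher in plasma cells, and Ms4a4b was called lower with no Ptprc requirement (-2.13, 0.00981) and without wt replicate 2 (-2.96, 0.0346). Ms4a6d was at -0.53 under the stricter cell filter and Ms4a7 at -3.07 without wt replicate 2, and neither was called.

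Ms4a2, the IgE receptor beta chain gene, was found in basophils. The class was small, and its cells were pooled. Tissue basophils gave 35 UMIs in 33 cells (606 CPM), ntCZC basophils 21 UMIs in 5 cells (1192 CPM) and PBMC basophils 7 UMIs in 4 cells (947 CPM). A UMI was seen in 51.5% of the tissue, 80% of the ntCZC and 100% of the PBMC basophils, against 0.0339% of tissue endothelial cells. No library held 10 basophils, so no test was made. Outside basophils the mean tissue level was at most 1.88 CPM in any class of the fit. Gated classes held 45 of the 151 Ms4a2 UMIs of Ptprc-positive tissue cells, 21 of 32 in ntCZC and 7 of 12 in PBMC. The other UMIs lay in cells without a class. Its promoter window is the one with 3 AGATAA matches. Ms4a3 was at the floor of the measurement. It had 12 UMIs in all Ptprc-positive tissue cells, of which 3 were in alveolar macrophages (mean 0.386 CPM) and 1 in a basophil, and none in ntCZC or PBMC cells.

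Ms4a4b marked T and NK cells. In tissue T cells it ranged from 301 to 777 CPM, median 490, over 8 libraries, and in NK cells from 423 to 1013, median 741, over 7. B cells were at 13.1 to 56.2 CPM, below T cells in 8 of 8 libraries without overlap (log2 change of B over T -4.58 ± 0.28, adjusted p = 5.51e-26). T and NK cells did not differ beyond the error (log2 change of NK over T 0.20, 95% interval -0.28 to 0.68, adjusted p = 0.698). NK cells were higher in 5 of the 7 libraries. In blood it was at 1169 (wt replicate 1) and 1009 CPM (het replicate 4) in ntCZC T cells and at 1072 and 1443 CPM in PBMC T and NK cells, all above the tissue ranges. The 1 ntCZC library with at least 10 NK cells (het replicate 4, 15 cells) held Ms4a4b at 583 CPM, inside the tissue NK range. These blood and tissue levels were not tested against each other.

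Ms4a6b separated T from NK cells. T cells ranged from 150 to 437 CPM, median 257, and NK cells from 0 to 147, median 101, without overlap. NK cells were lower in 7 of 7 libraries (log2 change -1.90 ± 0.35, adjusted p = 2.83e-05). It was the only 1 of 7 tested members called in this comparison, where 9.69% of all genes were called and where the median log2 change of all genes was -0.31. Scaling by RLE factors moved that median to 0.02 and left the call of Ms4a6b in place. Among the others Ms4a6c (22.2 ± 20.9 CPM in NK and 19.1 ± 7.6 in T cells, adjusted p = 0.999), Ms4a4c (8.96 ± 15.5 and 23.6 ± 8.44, 0.356) and Ms4a6d (5.4 ± 10.9 and 9.1 ± 5.54, 0.677) did not pass. Ms4a1, Ms4a2, Ms4a3, Ms4a4a and Ms4a7 were at 0 in NK cells, of which a library held at most 51. Of these Ms4a1 (adjusted p = 0.368) and Ms4a7 (0.57) were tested and not called. B cells were at 9.65 to 45 CPM of Ms4a6b (log2 change over T cells -3.58 ± 0.28, adjusted p = 2.89e-20). In ntCZC T cells Ms4a6b stood at 452 (wt replicate 1) and 551 CPM (het replicate 4) and in the PBMC library at 709 CPM in T and 42.4 CPM in NK cells, the latter from 2 UMIs. The 15 ntCZC NK cells of het replicate 4 were at 184 CPM, above the tissue NK range.

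**Figure D2:**
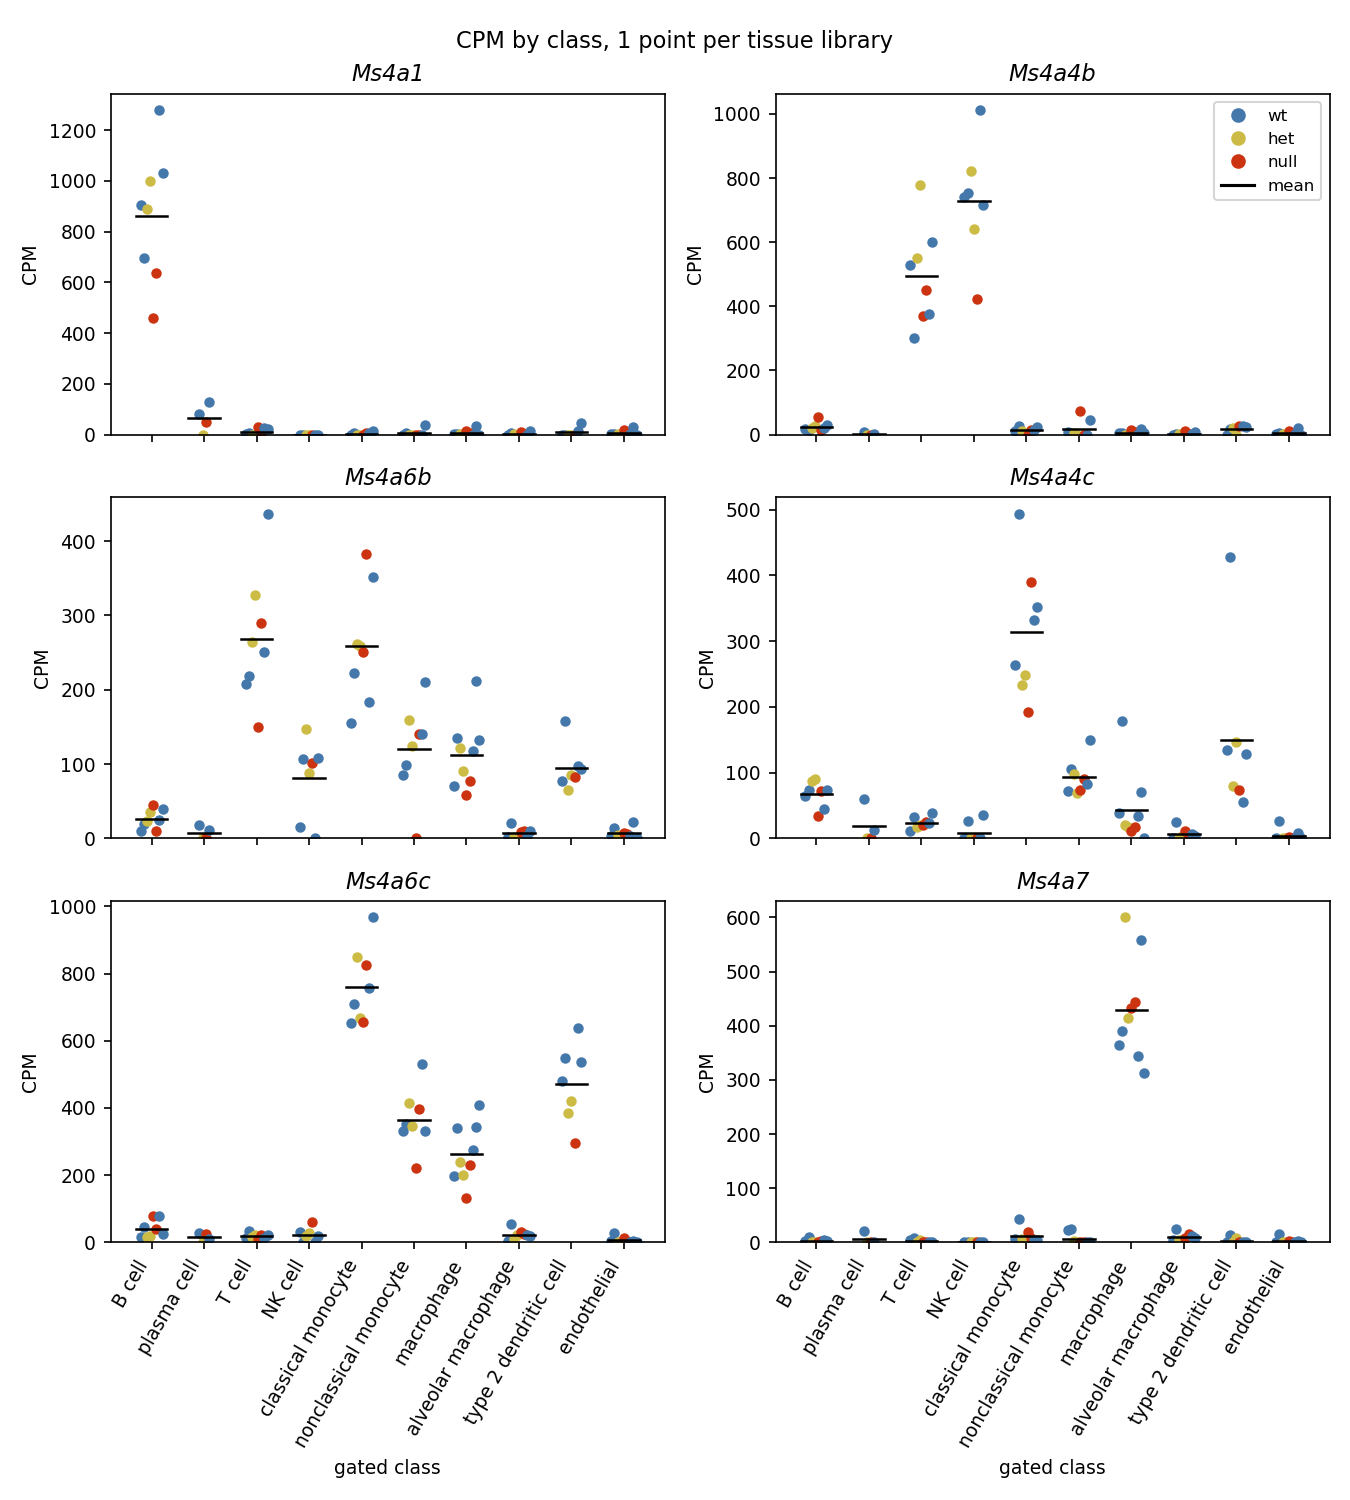
CPM of 6 genes (panels) by gated class in tissue, 1 point per library with at least 10 cells of the class, coloured by Nalcn genotype, with the mean as a bar. Ms4a6b reached similar means in T cells (268) and classical monocytes (258), while Ms4a7 lay between 312 and 600 in macrophages.

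Ms4a6b also stood high in monocytes. Classical monocytes, the Ly6C-high cells that leave the blood for tissues, held 155 to 382 CPM, median 255, which overlapped T cells in range. Its mean order in tissue was T cells (268 ± 86.8 SD, n = 8), classical monocytes (258 ± 77, n = 8), nonclassical monocytes (120 ± 61.8, n = 8), macrophages (113 ± 46.6, n = 9), type 2 dendritic cells (94.3 ± 29.8, n = 7) and NK cells (80.8 ± 53.3, n = 7). The means of the first 2 classes, and those of neighbours among the next 4, lay closer than 1 SD.

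Ms4a6c was the highest of the family in monocytes. In tissue classical monocytes it ranged from 653 to 967 CPM, median 734. Type 2 dendritic cells followed at 295 to 638 CPM, median 480, then nonclassical monocytes, the patrolling cells of vessels, at 222 to 530, median 349, and macrophages at 131 to 408, median 238. The first 2 classes did not overlap, and each later pair did. ntCZC classical monocytes held 1449 (wt replicate 1), 1433 (het replicate 4), 1724 (null replicate 2) and 1639 CPM (null replicate 4). Ms4a6c was detected in 100% of ntCZC and 80.9% of tissue classical monocytes, or 76.4% and 49.9% after thinning to 1000 UMIs, against 1.06% of endothelial cells before thinning.

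Ms4a4c was led by classical monocytes as well. They held 193 to 494 CPM, median 298, ahead of type 2 dendritic cells (55.5 to 428, median 128), nonclassical monocytes (69.3 to 150, median 86.6) and B cells (33.7 to 90.9). Its nearest paralog by sequence, Ms4a4b, was at 0 to 25.8 CPM in classical monocytes, and Ms4a4c at 11.4 to 38 CPM in T cells. The classes in which the 2 genes were highest thus differed. Their coding sequences were 91.7% identical, and both promoter windows held GAGGAA, which 23.3% of all promoter windows held. Whether either bears on the class was not tested. Ms4a6d was lower in general. Macrophages held 44 to 199 CPM, median 119, classical monocytes 21.6 to 193, median 82.6, and alveolar macrophages of the lung 49.4 to 100, with a mean of 63.7 ± 17 SD. In ntCZC, classical monocytes led, at 127 to 203 CPM (mean 170 ± 31.8 SD, n = 4), without overlap with nonclassical monocytes, the next class (15.9 to 107). In ntCZC cells of the large peritoneal macrophage gate Ms4a6d was at 96.5 (null replicate 1), 39.3 (null replicate 4) and 26.3 CPM (het replicate 3). Platelet markers were found in 86.6% of the 67 cells of that gate, and their part in these values was not tested. Ms4a4a was rare, at 0 to 22.9 CPM in tissue classical monocytes and 41, 23, 16.3 and 0 CPM in the ntCZC libraries.

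Nonclassical monocytes held less of 4 members than classical monocytes, where 12.5% of all genes were called. The log2 change was -1.88 ± 0.32 for Ms4a4c (adjusted p = 5.24e-06), -1.10 ± 0.23 for Ms4a6c (1.68e-04), -1.02 ± 0.26 for Ms4a6b (0.00259) and -1.40 ± 0.31 for Ms4a6d (4.94e-04). The first 3 were lower in 8 of 8 libraries and Ms4a6d in 7 of 8. Ms4a4c and Ms4a6c did not overlap between the classes. The median of the 7 tested members was -1.10 against -0.01 for all genes. Under the stricter cell filter Ms4a4c alone stayed past the threshold, and the others were at -0.62 for Ms4a6b (adjusted p = 0.441), -0.96 for Ms4a6c (0.104) and -1.10 for Ms4a6d (0.148). Ms4a4b (17 ± 27.6 CPM in nonclassical and 12.9 ± 9.65 in classical monocytes, adjusted p = 0.203), Ms4a7 (6.02 ± 10.6 and 11.1 ± 14, 0.977) and Ms4a1 (5.69 ± 13.2 and 4.04 ± 5.15, 0.982) did not pass. Ms4a4a (5.72 ± 5.79 and 7.86 ± 7.86), Ms4a2 (1.88 ± 5.32 and 0) and Ms4a3 (0 in both) were not tested.

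Ms4a7 set macrophages apart. The 9 tissue libraries held 312 to 600 CPM, median 414, in macrophages, 38.5-fold the mean of classical monocytes, the next class. Classical monocytes were at 0 to 43 CPM, and alveolar macrophages, which passed a gate of their own, had a mean of 9.77 ± 7.45 CPM. Macrophages were higher than classical monocytes in 8 of 8 libraries without overlap (log2 change 5.50 ± 0.34, adjusted p = 2.41e-24). Ms4a7 was detected in 51.7% of macrophages (29.4% thinned) and in 0.588% of endothelial cells (0.314% thinned). In ntCZC cells its mean was at most 7.73 CPM in any class with 3 or more libraries, with 4.32 ± 4.05 CPM in the large peritoneal macrophage gate. The 1 ntCZC library with at least 10 gated macrophages was at 23.7 CPM in only 17 cells. Over all ntCZC libraries 70% of the 40 gated macrophages held a platelet marker.

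Other members were lower in macrophages than in classical monocytes. Of 7 tested genes 5 were called between macrophages and classical monocytes, where 31.2% of all genes were. Platelet markers were found in 31.1% of tissue macrophages and 6% of tissue classical monocytes, and their part in these calls was not tested. Ms4a4c (log2 change -2.85 ± 0.30, adjusted p = 1.45e-13), Ms4a6c (-1.64 ± 0.22, 8.41e-10) and Ms4a6b (-1.17 ± 0.23, 2.70e-05) were lower in 8 of 8 libraries. Under the stricter cell filter the call of Ms4a6b was lost (-0.83, adjusted p = 0.0509). Ms4a4b, at 0 to 16.3 CPM in macrophages and 0 to 25.8 in classical monocytes, was called at -1.74 ± 0.47 (adjusted p = 0.00196), a call lost with DESeq2 (-1.45, 0.0619), with any marker of another lineage disallowed (-1.98, 0.0662) and without wt replicate 2 (-1.29, 0.0999). Ms4a6d (0.11, 95% interval -0.37 to 0.59, adjusted p = 0.796) and Ms4a1 (6.77 ± 10.8 against 4.04 ± 5.15 CPM, 0.922) did not pass. Ms4a4a (1.29 ± 1.86 against 7.86 ± 7.86 CPM), Ms4a2 and Ms4a3 (0 in both) did not pass the filter on low counts. Without that filter Ms4a4a was called lower in macrophages (-2.10, adjusted p = 0.00484). The macrophage value of Ms4a4c in wt replicate 2 was 179 CPM, against 0 to 69.9 in the other 8. In that library endothelial cells held 26.6 CPM of Ms4a4c, 15 of Ms4a6d and 15 of Ms4a7, against at most 8.14, 5.6 and 2.87 in the others, and the part of this background in its values was not tested.

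**Figure D3:**
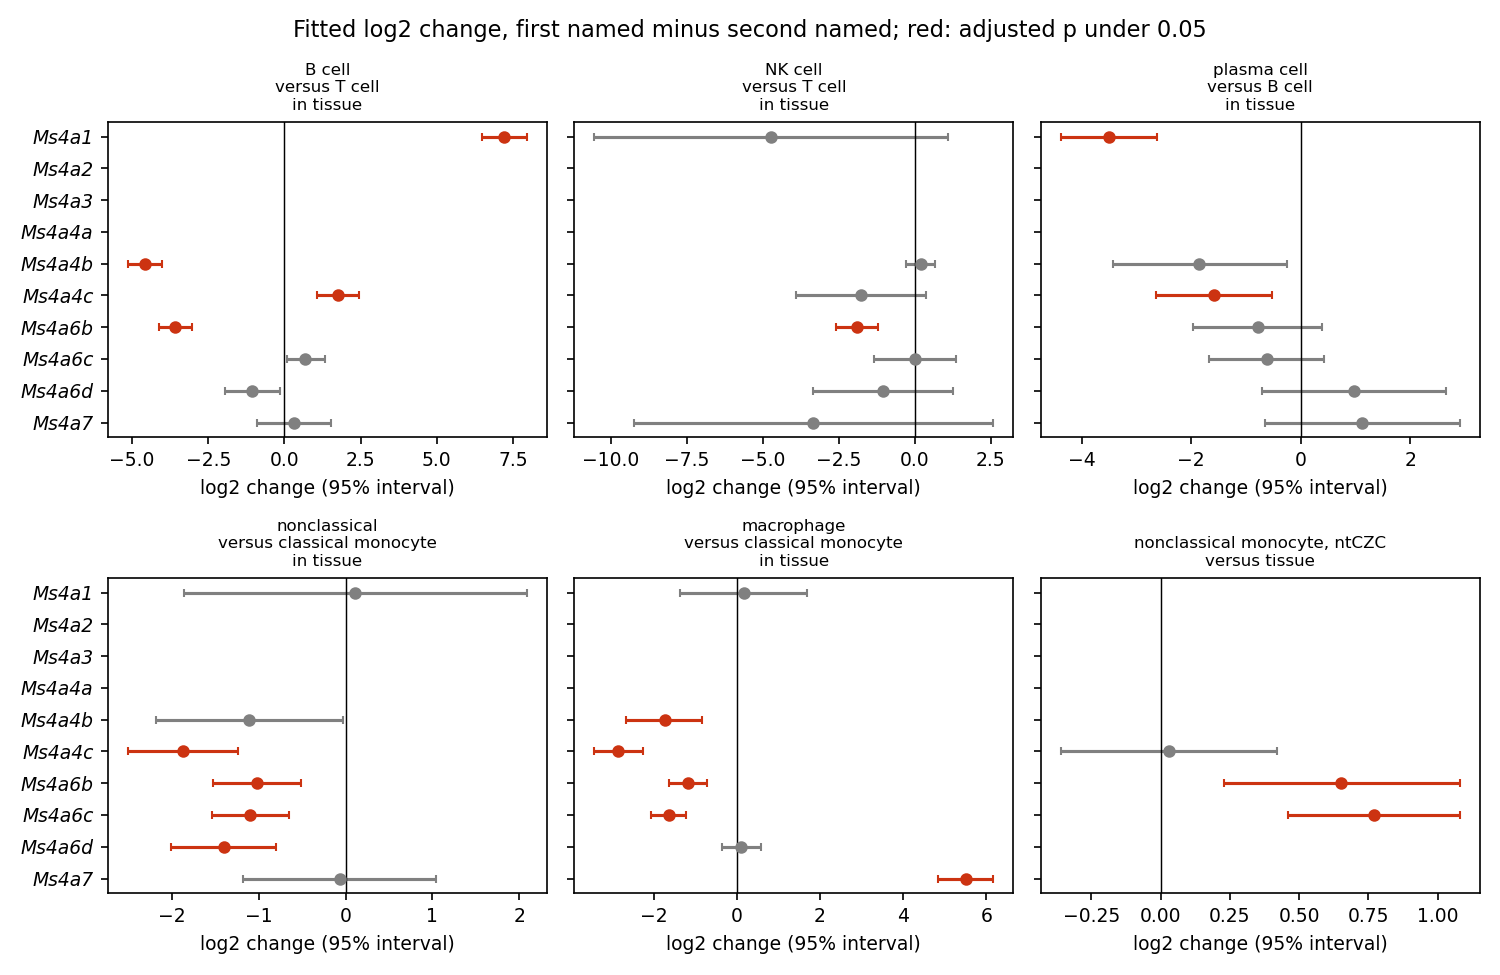
Fitted log2 change (x axis, with 95% interval; first named class or library kind minus the second) of each gene that passed the filter, in 6 comparisons; red marks an adjusted p under 0.05. The x axes differ. Ms4a1 reached 7.22 in B over T cells and Ms4a7 5.50 in macrophages over classical monocytes.

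Nonclassical monocytes were the largest sorted class, with 956 cells over all ntCZC libraries and 837 over all grouped tissue libraries. They were compared between the 8 libraries of each kind that held at least 10 of them. Ms4a6c was at 558 to 1063 CPM, median 762, in ntCZC and 222 to 530, median 349, in tissue. The groups did not overlap, and the fitted log2 difference was 0.77 ± 0.16 (adjusted p = 5.83e-04). Ms4a6b was at 171 to 472 CPM, median 234, against 0 to 211, median 132 (0.65 ± 0.22, adjusted p = 0.0209), and Ms4a4c at 71.7 to 223, median 126, against 69.3 to 150, median 86.6 (0.03, 95% interval -0.36 to 0.42, adjusted p = 0.929). Of the 10 genes 3 passed the filter here and 2 were called, where 34% of all 3168 tested genes were, so the members' share stands on few genes. Ms4a6d (mean 58 ± 32.3 against 32.1 ± 16.9) and Ms4a4a (18.9 ± 7.9 against 5.72 ± 5.79) did not pass the filter, and their ranges overlapped. Nor did Ms4a4b (4.99 ± 4.43 against 17 ± 27.6), Ms4a7 (3.31 ± 3.21 against 6.02 ± 10.6), Ms4a1 (0 against 5.69 ± 13.2), Ms4a2 (0 against 1.88 ± 5.32) and Ms4a3 (0 in both). Without the filter Ms4a4a (1.68, adjusted p = 0.00483) was called higher in ntCZC, and Ms4a7 (-1.46, 0.0284) and Ms4a1, at 0 in every ntCZC library, were called lower.

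The call of Ms4a6b was lost without ntCZC null replicate 1 (0.54, adjusted p = 0.0529) or tissue wt replicate 1 (0.58, 0.0545) and under the stricter cell filter (0.62, 0.0922). With any marker of another lineage disallowed neither gene passed (Ms4a6c 0.63, adjusted p = 0.0814, and Ms4a6b 0.41, 0.414). Without the ntCZC cells whose barcode also occurs in a tissue library, 49 of the 956, the values were 0.78 (9.32e-04) and 0.67 (0.0256), an alternative chosen after seeing the data. Without tissue null replicate 3, whose Y-linked RNA goes against its label, they were 0.77 (0.0019) and 0.61 (0.0476). Cells were deeper in ntCZC, with a median of 4361 against 2219 UMIs. Thinned to 1000 UMIs, Ms4a6c was detected in 46.7% of ntCZC and 28.2% of tissue cells (83.3% and 50.5% unthinned, 21 and 44 cells left out). Source tissue, sorting on ZsGreen and cell handling all differed between the library kinds and cannot be told apart. Nalcn genotype was also unevenly spread, with 1 wt, 3 het and 4 null libraries in ntCZC and 4 wt, 2 het and 2 null in tissue, and its part was not tested. The PBMC library had 15 nonclassical monocytes, with Ms4a6c at 586 CPM from 17 UMIs.

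**Figure D4:**
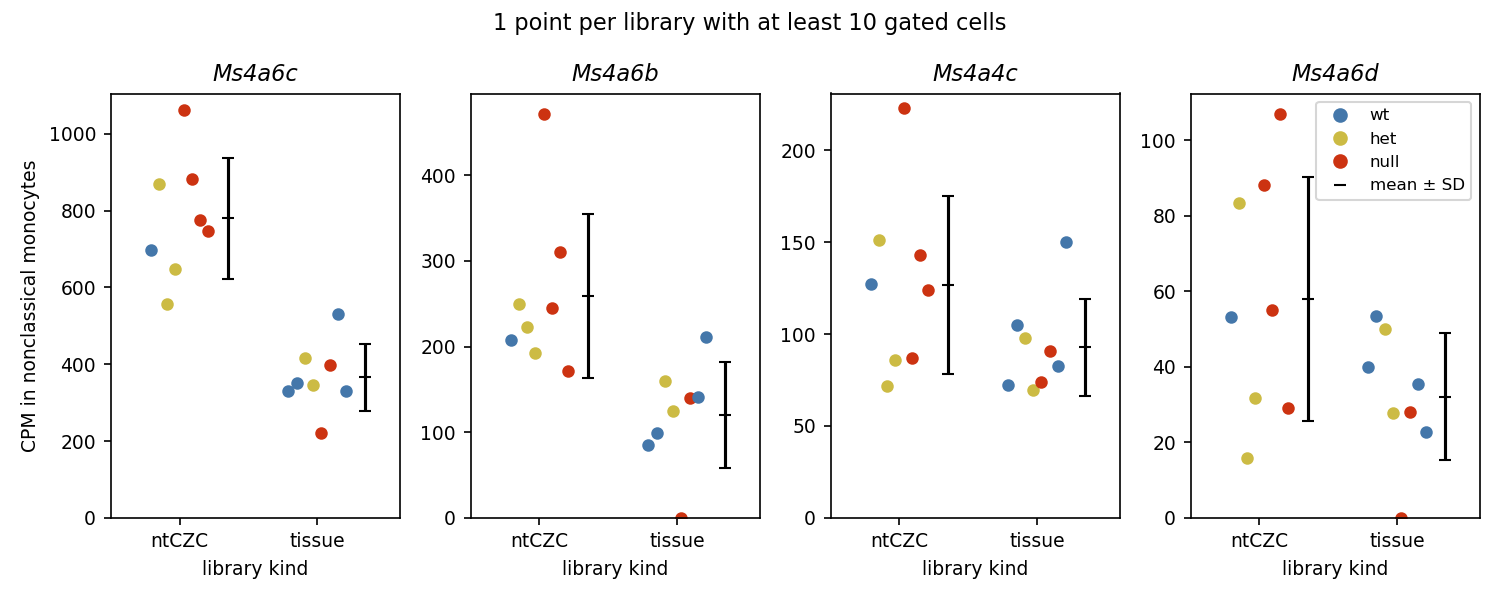
CPM in nonclassical monocytes (y axis) of 4 genes (panels) in ntCZC and tissue libraries, 1 point per library with at least 10 cells, coloured by Nalcn genotype, with mean ± SD beside the points. The 8 ntCZC libraries lie above the 8 tissue libraries for Ms4a6c, and the groups overlap for Ms4a6b, Ms4a4c and Ms4a6d.

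In B cells no member was called between ntCZC and tissue, with 2 tested (Ms4a1 and Ms4a4c), where 28.5% of 2659 genes were called. Ms4a4c was at 0 to 207 CPM in ntCZC and 33.7 to 90.9 in tissue (log2 difference 0.07, 95% interval -0.91 to 1.04, adjusted p = 0.945). Of the 2, 0 had an unadjusted p under 0.05, and DESeq2 called 0. The B cells of ntCZC het replicate 3 stood apart, with a mean of 10599 UMIs a cell against 2187 to 3506 in the other ntCZC libraries, and held no Ms4a4c UMI, which allows up to 9.13 CPM. Without them the difference of Ms4a4c was 0.60 (adjusted p = 0.169) and that of Ms4a1 0.01 (0.976). The other members did not pass the filter. Ms4a4b (3.46 ± 9.14 CPM in ntCZC), Ms4a6b (21.2 ± 27.9), Ms4a6c (16 ± 27.8) and Ms4a6d (0.87 ± 2.3) overlapped tissue B cells, and Ms4a2, Ms4a3, Ms4a4a and Ms4a7 were at 0. Without the filter Ms4a4b was called lower in ntCZC (-2.40, adjusted p = 0.0192).

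Nalcn genotype was compared within 3 classes, and none of the genes past the filter on low counts, members included, was called by edgeR with the classes and model described (0% in each). These fits gave 78 genes with an unadjusted p under 0.05 of 3866 tested in ntCZC nonclassical monocytes, 259 of 5223 in tissue B cells and 179 of 5211 in tissue macrophages, and DESeq2 called 0, 2 and 1, of which 0 were members. Among the members only Ms4a4c and Ms4a6c in macrophages had an unadjusted p under 0.05. In ntCZC nonclassical monocytes Ms4a6c was at 1063, 882, 775 and 748 CPM in null replicates 1, 2, 3 and 4, at 869, 558 and 649 in het replicates 1, 2 and 4, and at 698 in wt replicate 1. The ranges overlapped (log2 change of null over het 0.35, 95% interval -0.02 to 0.73, adjusted p = 1). Ms4a1 in tissue B cells was at 461, 635, 888 and 1000 CPM in null replicates 2 and 3 and het replicates 1 and 2, and at 904, 696, 1280 and 1031 CPM in wt replicates 1 to 4 (-0.35, interval -0.89 to 0.18, adjusted p = 0.971). Ms4a7 in tissue macrophages was at 432, 444, 600 and 414 CPM in the same null and het libraries and at 364, 391, 344, 559 and 312 CPM in wt replicates 1 to 5 (0.24, interval -0.22 to 0.71, adjusted p = 1). Ms4a4c in macrophages had the smallest unadjusted p of the members. The null and het libraries held 11.6 to 20 CPM and the wt libraries 0 to 179, the highest being wt replicate 2 (-2.24, interval -3.64 to -0.83, adjusted p = 1). Without the filter on low counts edgeR called it (-2.29, adjusted p = 1.42e-07), with 11, 96 and 90 genes called in the 3 comparisons. In null against het edgeR called 7 genes with any marker of another lineage disallowed and 1 with the replicate block, of which 0 were members. Ms4a6c in macrophages was at 131 to 238 CPM in null and het against 198 to 408 CPM in wt libraries (-0.61, interval -1.13 to -0.09, adjusted p = 1). The other fitted changes were 0.41 for Ms4a4c, 0.43 for Ms4a6b and 0.45 for Ms4a6d in nonclassical monocytes, 0.26 for Ms4a4c, 0.12 for Ms4a6b and -0.24 for Ms4a6c in B cells, and -0.54 for Ms4a6b and -0.12 for Ms4a6d in macrophages, all with an adjusted p of at least 0.986. The 3 het libraries with nonclassical monocytes are labelled male and 3 of the 4 null libraries female, so genotype and sex can hardly be told apart there. With sex as a covariate Ms4a4c was at -0.24 (adjusted p = 1).

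The remaining members did not pass the filter on low counts in the genotype comparisons, and their ranges overlapped or were 0 in a group. In ntCZC nonclassical monocytes Ms4a4a was at 15.6 ± 8.84 CPM in null and 19.7 ± 4.22 in het, Ms4a4b at 2.91 ± 3.8 and 5.1 ± 2.5 and Ms4a7 at 2.66 ± 3.36 and 3.54 ± 4.04, and Ms4a1, Ms4a2 and Ms4a3 were at 0. In tissue B cells of het and null against wt, Ms4a4b was at 28.5 ± 19.1 and 20.4 ± 7.59 CPM, Ms4a7 at 1.12 ± 1.54 and 4.47 ± 3.53, Ms4a6d at 0 and 4.9 ± 8.66, Ms4a4a at 0 and 1.12 ± 1.52 and Ms4a2 at 0 and 0.159 ± 0.318, and Ms4a3 was at 0. In tissue macrophages, in the same order, Ms4a1 was at 6.43 ± 6.23 and 7.04 ± 14.3 CPM, Ms4a4b at 5.94 ± 7.45 and 6.62 ± 5.47 and Ms4a4a at 0.416 ± 0.833 and 1.99 ± 2.24, and Ms4a2 and Ms4a3 were at 0.

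Other genes of the family and partners of these proteins were read from lists. Of 11 further MS4A and Tmem176 genes 3 were tested in the class fit, Ms4a8a and the related Tmem176a and Tmem176b. The shares of all genes called were 27.3% in B against T cells, 9.69% in NK against T cells, 23.2% in plasma against B cells, 12.5% in nonclassical and 31.2% in macrophages against classical monocytes, and 34% in nonclassical monocytes and 28.5% in B cells of ntCZC against tissue. Tmem176a and Tmem176b were lower in B than in T cells (log2 change -2.62 and -2.23, 2 of 3 called, none higher) and in NK than in T cells (-2.11 and -2.01, 2 of 3 called), and higher in plasma than in B cells (2.97 and 2.84, 2 of 3 called) and in macrophages than in classical monocytes (1.92 and 1.43). Ms4a8a was lower in nonclassical monocytes (-1.92, the 1 of 3 called) and in macrophages (-2.77) than in classical monocytes. Neither of the 2 tested passed in nonclassical monocytes between ntCZC and tissue.

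Of 10 receptor partners 9 were in the matrices and 8 were tested in the class fit. The same shares of all genes called stand beside these counts. Between B and T cells (27.3%) 4 of 8 were higher in B cells and 1 lower, among them the kinases Syk (4.20) and Lyn (3.65). In NK over T cells (9.69%) 4 were higher and 1 lower, led by the Fc receptor gamma chain gene Fcer1g (3.91) and Fcgr3 (2.92). Plasma over B cells (23.2%) were higher for 2 and lower for 3, with Lyn at -2.17 and Syk at -1.61. Nonclassical over classical monocytes gave 1 higher (the tetraspanin gene Cd81, 1.39) and 2 lower (Fcgr1, -1.97, and Fcgr3, -1.03), and macrophages 1 higher (Cd81, 4.58) and 2 lower (Lyn, -0.99, and Syk, -0.56). In nonclassical monocytes 3 of 5 tested were higher in ntCZC than in tissue (Fcgr3, 0.83, Fcer1g, 0.73, and Lyn, 0.40) and 1 was lower (Cd81, -0.94). In ntCZC over tissue B cells and in the genotype comparisons none was called.

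Genes with the most similar pattern were read over the mean levels of the 12 tissue classes of the fit, as Pearson's r of log2(CPM + 1) among 8783 genes, as a description. The points share libraries and are few. Ms4a1 was closest to Rgs13 (r = 0.922), Chst3 (0.920) and Cacna1i (0.918), Ms4a4b to Txk (0.957), Sytl3 (0.939) and Ifng (0.938), and Ms4a6b to Slfn8 (0.926), Rnf213 (0.871) and Zbtb16 (0.856). Ms4a4c was closest to its family member Ms4a6c (0.826), then Arl5c (0.820) and Prkag2 (0.818), and Ms4a6c to Adora2b (0.931) and Sestd1 (0.898). Ms4a6d was closest to Stard9 (0.936), Fcgr1 (0.930) and Tep1 (0.913) and Ms4a7 to Itga9 (0.933), Mmp13 (0.913) and Ccl12 (0.912). Ms4a2, Ms4a3 and Ms4a4a were under 20 CPM in every class and were not compared.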

How the data were processed

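Single-cell 3′ RNA libraries (10x Chromium v3) were aligned to mm10 and counted by the authors, and the deposited matrices hold raw UMI counts per gene and cell, filtered for cells. The submitters' processing notes name Cell Ranger 2.1.1 and Seurat, and the matrix headers give software version 3.0.2. Here, cells with at least 200 genes, at most 25% mitochondrial UMIs and at least 1 Ptprc UMI were gated by markers. No doublet caller was run, and cells with 2 or more markers of a second lineage were dropped. Platelet markers were not counted as another lineage in any gate. Counts were summed per library and class (at least 10 cells) and tested with edgeR 4.0.16 in R 4.3.3 (TMM, filterByExpr, quasi-likelihood test, Benjamini-Hochberg adjustment over all genes tested). Tissue classes present in at least 3 libraries entered 1 fit with library as a block. Sex from the labels was a covariate elsewhere, except in null against het. CPM values are not TMM-scaled, so their ratios can differ from fitted changes. Standard errors came from the F statistic, and binomial and zero-count limits cover counting error only. Alternatives were RLE scaling, DESeq2 1.42.0, no filter, other gates, each library left out, a replicate block, the sex covariate and, chosen after seeing the data, leaving out shared barcodes. All 10 members are named in every comparison, list genes by the largest change among those called (at most 4), and for each member the 3 genes most alike in pattern, except that values of some genes these rules would name are not reported here. The members and lists were chosen with earlier results of these data known. Scripts were tested on simulated data. Clec7a was not analysed here.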

Additional observations from a re-analysis of the deposited data

Results flagged for a closer look

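In 74 sets of 4 to 10 libraries, 1 library stood apart from the rest in 15 by Dixon's criterion. Its chance rate of about 1 set in 20 holds for independent sets of normally distributed values. Many sets here hold values near 0 and reuse the same libraries, so the count cannot be set against that rate. All values are CPM in tissue unless said otherwise. In wt replicate 2, Ms4a7 was at 9.55 in B cells (next highest 4.08), 8.72 in T cells (3.52), 43 in classical monocytes (19.3) and 21 in plasma cells (0 in the others). The same library held Ms4a6d at 17.8 in B cells (1.77) and 18 in plasma cells (1.59), and Ms4a4c at 179 in macrophages (69.9). Its endothelial cells held 26.6 of Ms4a4c, 26.3 of Ms4a6c, 15 of Ms4a6d and 15 of Ms4a7, above the other 8 libraries for each, and the part of this background was not tested. In wt replicate 4, Ms4a1 was at 32.6 in macrophages (15.4) and 37.6 in nonclassical monocytes (7.91), Ms4a6b at 212 in macrophages (135) and Ms4a4c at 150 in nonclassical monocytes (105). Ms4a4b was at 56.2 in B cells of null replicate 2 (31) and Ms4a6d at 29.1 in NK cells of het replicate 2 (8.66). Among the het and null libraries, Ms4a7 was at 600.0 in macrophages of het replicate 1 (444). In ntCZC nonclassical monocytes, Ms4a6b was at 472 in null replicate 1 (310).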

How the results depend on the processing

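Of the log2 changes of single members under the alternatives, 791 kept direction and side of the threshold, 19 lost their call, 9 gained one and 55 changed sign, none of the last with an adjusted p under 0.05. The cause of each change was not tested. Leaving out 1 library in turn gave 1 to 3 members called in plasma against B cells (1 without het replicate 1, het replicate 2, null replicate 3 or wt replicate 4) and 1 to 2 in nonclassical monocytes of ntCZC against tissue. With 500 genes and 10% mitochondrial UMIs, 1 member was called in plasma against B cells, 1 in nonclassical against classical monocytes and 1 in ntCZC against tissue nonclassical monocytes. With any marker of another lineage disallowed (the strict gate), 0 were called in the last. Without the filter on low counts, 5 were called there, 6 in macrophages against classical monocytes, 5 in B against T cells, 1 in ntCZC against tissue B cells and 1 in macrophages by genotype (Ms4a4c, -2.29).

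Sign changes with 500 genes and 10% mitochondrial UMIs were Ms4a6d 0.03 and Ms4a7 -1.35 (B against T), Ms4a6d -0.53 (plasma against B), Ms4a7 0.29 (nonclassical against classical), Ms4a4c -0.25 (nonclassical, ntCZC against tissue) and Ms4a6c 0.88 (B by genotype). A gate of 2 markers gave Ms4a6c -0.37 (NK against T), Ms4a6b 0.44 and Ms4a6c 0.84 (plasma against B), Ms4a1 -0.02 (macrophage against classical) and Ms4a4c -0.08 (nonclassical, ntCZC against tissue). The strict gate gave Ms4a1 -0.54 and Ms4a7 1.77 (nonclassical against classical), Ms4a1 -0.58 (macrophage against classical), Ms4a4c -0.31 (nonclassical, ntCZC against tissue) and Ms4a7 -0.11 (macrophage by genotype). No Ptprc requirement gave Ms4a1 -0.02 and Ms4a7 0.03 (nonclassical against classical). No filter gave Ms4a6c -0.08 (NK against T), and Ms4a1 -0.19 and Ms4a4c -0.18 (B, ntCZC against tissue), where RLE scaling gave Ms4a4c -0.02 and leaving out shared barcodes Ms4a1 -0.00. DESeq2 gave Ms4a7 1.06 (NK against T) and 0.16 (nonclassical against classical). The sex covariate gave Ms4a4c -0.24 (null against het).

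With 1 library left out in turn, signs changed within these ranges: Ms4a6c -0.35 to 0.35 (NK against T), Ms4a7 -3.07 to 1.83 (plasma against B), Ms4a1 -0.54 to 0.29 (nonclassical against classical), Ms4a7 -1.16 to 0.81 (nonclassical against classical), Ms4a1 -0.29 to 1.03 (macrophage against classical), Ms4a4c -0.06 to 0.12 (nonclassical, ntCZC against tissue), Ms4a4c -0.69 to 0.60 (B, ntCZC against tissue), Ms4a6b -0.18 to 0.77 (B by genotype), Ms4a6c -0.70 to 0.26 (B by genotype) and Ms4a6d -0.42 to 0.59 (macrophage by genotype).

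Same-numbered libraries did not deviate together (correlations -0.29 to 0.33). Such pairs are few, and some ntCZC and tissue libraries of the same number share genotype, age and sex. The correlations therefore cannot settle whether the numbers pair libraries by animal. The replicate block gave 576 genes and 2 members in ntCZC against tissue nonclassical monocytes, 394 and 0 in B cells, 1 gene in null against het, and turned Ms4a6d in macrophages by genotype to 0.15. Scaling moved the genes higher and lower in NK against T cells from 188 and 536 to 312 and 180 (RLE), in plasma against B from 707 and 1029 to 941 and 702, in nonclassical against classical from 436 and 501 to 588 and 390, and in macrophages against classical from 1316 and 1017 to 1986 and 789. In B cells of ntCZC against tissue RLE moved 345 and 413 to 282 and 513, and DESeq2 moved nonclassical monocytes from 466 and 611 to 624 and 537. Genes called also changed by over 1.5 times without the filter (3571 and 1826 in ntCZC against tissue nonclassical monocytes and B cells, 11 in null against het, 96 and 90 in B cells and macrophages by genotype), with DESeq2 (470 in NK against T), without Ptprc (1306 in ntCZC against tissue B cells), with 1 library left out (1135 at the lowest in plasma against B), with the strict gate (418 in B against T, 309 in nonclassical against classical, 603 in macrophages against classical, 319 in ntCZC against tissue nonclassical monocytes, 7 in null against het) and with 500 genes and 10% mitochondrial UMIs (1117 in B against T, 619 in plasma against B, 314 in nonclassical against classical, 1390 in macrophages against classical and 172 in ntCZC against tissue B cells). The strict gate left too few cells for NK against T, plasma against B and ntCZC against tissue B cells, and 500 genes and 10% mitochondrial UMIs for NK against T.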

Other observations

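For 2 tissue libraries, 1 of a male of 610 days and 1 of a female of 647 days, title and strain name different genotypes, so they entered no group. In the first and the second, in this order, Ms4a1 was at 990 and 832 CPM in B cells, Ms4a4b at 793 and 570 CPM in T cells, Ms4a6c at 499 and 388 CPM and Ms4a6b at 303 and 159 CPM in nonclassical monocytes, and Ms4a7 at 770 and 456 CPM in macrophages, where Ms4a4c was at 40.3 and 110 CPM. The 31 B cells of ntCZC het replicate 3 held Ms4a1 at 1245 CPM, with a UMI in 100% of cells, and Ms4a6c at 63.9 CPM, with a UMI in 35.5%.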
